A study of Rattus norvegicus with 9 samples.

Results

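A set of 10 growth factor receptor and ligand genes were followed across 3 tissues of the early rat kidney: the receptors Egfr, Erbb2, Erbb3, Met, Pdgfra, Pdgfrb and Kit, and the ligands Areg, Hgf and Pdgfa. The members were all probe sets on the array whose single gene symbol in the platform annotation was 1 of these 10, which gave 14 of 31099 probe sets and 10 of 14218 genes named by a single symbol. Egfr and Pdgfrb had 3 probe sets each and the other genes 1 each. Total RNA came from embryonic day 13 kidneys and ducts of Sprague-Dawley rats, dissected directly and not cultured. The tissues were the ureteric bud (UB), the outgrowth that branches inside the kidney; the Wolffian duct with mesodermal cells still attached (WD+IM); and the bare Wolffian duct (WD), the epithelial tube that the bud grows from. Each tissue had 3 single-colour Affymetrix arrays. An array held a pool of about 100 UBs, about 50 ducts with mesoderm or about 100 bare ducts. The UBs were freed from the kidney with a light trypsin digestion, while the ducts were isolated without treatment, so what digestion did and what differs by tissue cannot be told apart in any UB comparison.

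These proteins are receptor tyrosine kinases of the cell surface and the secreted factors that bind them. A bound receptor pairs with another and phosphorylates it, which starts the RAS-MAPK and PI3K-AKT cascades inside the cell. EGF family ligands bind EGFR, ERBB3 and ERBB4, while ERBB2 has no known ligand and works as a partner of the others, and ERBB3 has little kinase activity of its own. HGF, made by mesenchyme, binds MET on epithelium and makes cultured kidney tubules branch. PDGF-A binds PDGFRA, PDGF-B binds both PDGF receptors, and these receptors are best known from mesenchyme, pericytes and mesangial cells. KIT is the receptor of stem cell factor, the product of Kitlg, and is best known from blood, germ and pigment cell precursors.

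The members divided by tissue. Kit and Met had higher signals in the UB than the WD, and Egfr, Pdgfra, Pdgfrb and Pdgfa lower ones. With attached mesoderm, Pdgfra was higher and Pdgfa lower than in the bare duct. No call was made for Erbb2 or Erbb3 in any of the 3 comparisons, and Areg and Hgf were too weak to be tested. A probe set was tested when at least 3 of the 9 arrays lay above the 40th percentile of their own array, and 9 of the 14 members passed, for 8 of the 10 genes. Differences are given as log2(intensity + 46) with a standard error (SE), the first-named tissue minus the second, and a call is an adjusted p under 0.05 from limma with Benjamini-Hochberg adjustment over all 20334 probe sets tested. Of the 9 probe sets, 6 were called for the UB against the WD (29.9% of all probe sets tested were), 2 for WD+IM against the WD (12.7% of all) and 4 for the UB against WD+IM (25.5% of all).

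By gene, taking the tested probe set with the highest mean, 2 members were higher and 4 lower in the UB than the WD, against 13.3% and 19.6% of the 10811 genes tested. For WD+IM against the WD, 1 was higher and 1 lower, against 6.48% and 8.23% of genes. For the UB against WD+IM, 1 was higher and 3 were lower, against 13.6% and 16.6% of genes. Met passed the filter through its 3 UB arrays alone, and Kit passed through no WD array. Egfr and the stronger Pdgfrb probe set passed through no UB array. These counts therefore describe the genes, and nothing is read from their size. The share of higher among all probe sets called for the UB against the WD was 37.8% here, 50.8% after quantile normalization and 79.3% after centring each array on its median. The median difference of all probe sets tested moved with it, from -0.12 to 0.04 and 0.34.

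**Figure D1:**
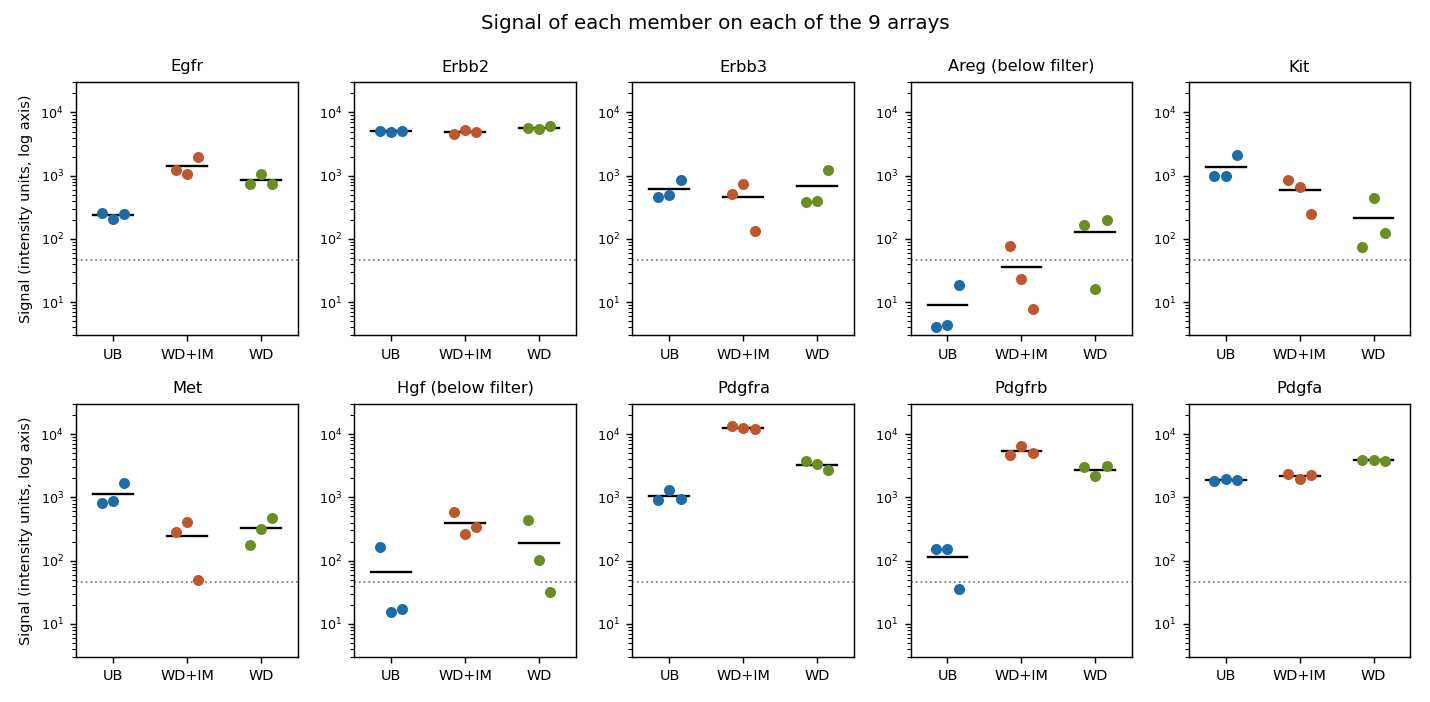
Signal of each gene on each array, in intensity units on a log axis, for the strongest probe set of the gene. Points are arrays, bars are means of 3 arrays, and the dotted line is the pseudocount of 46. Kit and Met are highest in the UB, Pdgfra and Pdgfrb in WD+IM, Pdgfa in the WD, and Erbb2 lies between 4614 and 6178 on all 9 arrays.

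The tissues could be recognised by their markers. The 10 markers of duct and bud epithelium gave summed intensities of 214911 to 238080 on the UB arrays, 49158 to 82807 on the WD+IM arrays and 195609 to 213796 on the WD arrays. The 9 mesenchymal markers, Pdgfra left out, summed to 13252 to 16593 in the UB, 181291 to 224834 in WD+IM and 83454 to 117701 in the WD. Col3a1 alone had a mean of 58705 in the WD. By gene, 6 of the 9 were lower in the UB than the WD, against 19.6% of all genes tested. Fbln2 was higher, against 13.3% of all genes, and Tcf21 and Prrx1 were not called. By these sums the bare ducts carried mesenchymal RNA, and the pools with mesoderm held a smaller share of epithelial RNA. In such pools fewer cells of a type and less RNA per cell cannot be told apart. The arrays also differed technically. The ratio of the spiked bioC to bioB controls lay between 2.87 and 2.99 for the UB and at 2.93 for WD+IM replicate 3, against 1.02 to 1.23 for the remaining 5 arrays. Signals at the 10th percentile were also low where that ratio was high, at 26.9 to 35.3 against 55.7 to 76.8. For beta-actin, whose 3' to 5' ratio grows as RNA degrades, that ratio was 1.48 to 2.30 in the UB, 1.47 to 1.92 in WD+IM and 2.19 to 4.87 in the WD. Since every UB array and no WD array had the high spike ratio, no comparison of UB with WD exists within 1 of these sets, and a spike term in the model rests on WD+IM replicate 3. The part that these measures play in the results below was not tested beyond the fits given.

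Of the 10 genes, 4 (Kit, Pdgfra, Egfr and Areg) lie on chromosome 14 of the rat GRCr8 assembly. Kit and Pdgfra are neighbours there, with 0 protein-coding genes between them in the RefSeq gene table, yet 1 was higher and the other lower in the UB than the WD. On the other side of Kit lies Kdr, the main VEGF receptor of endothelium, again with 0 protein-coding genes between. The promoter windows of Kit and Pdgfra are shown because these neighbours ran in opposite directions, and that of Egfr because it fell together with Pdgfra. Each runs from 250 bases before to 50 bases after an annotated start, 5′ to 3′ on the gene's strand, from the RefSeq table for GRCr8, which held 8 of the 10 genes (Erbb3 and Pdgfrb were the missing entries). Capitals mark matches on either strand to GGGCGG (GC box) or CCAAT. The letters TATAAA were searched too and had no match in these windows, and no 2 matches overlapped.
Kit, chr14:32978763-32979062, minus strand: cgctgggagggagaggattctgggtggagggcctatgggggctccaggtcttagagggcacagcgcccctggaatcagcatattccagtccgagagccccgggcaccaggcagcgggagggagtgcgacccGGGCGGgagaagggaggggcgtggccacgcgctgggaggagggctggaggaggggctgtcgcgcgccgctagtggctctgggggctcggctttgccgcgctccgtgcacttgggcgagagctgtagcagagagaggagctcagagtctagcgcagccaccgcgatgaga
Pdgfra, chr14:33408467-33408766, minus strand: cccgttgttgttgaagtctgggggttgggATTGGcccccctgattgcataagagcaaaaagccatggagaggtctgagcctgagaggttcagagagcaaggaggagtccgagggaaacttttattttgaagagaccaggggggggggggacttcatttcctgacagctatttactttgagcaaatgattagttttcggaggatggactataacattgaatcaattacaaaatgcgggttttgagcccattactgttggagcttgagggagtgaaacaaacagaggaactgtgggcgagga
Egfr, chr14:95378376-95378675, plus strand: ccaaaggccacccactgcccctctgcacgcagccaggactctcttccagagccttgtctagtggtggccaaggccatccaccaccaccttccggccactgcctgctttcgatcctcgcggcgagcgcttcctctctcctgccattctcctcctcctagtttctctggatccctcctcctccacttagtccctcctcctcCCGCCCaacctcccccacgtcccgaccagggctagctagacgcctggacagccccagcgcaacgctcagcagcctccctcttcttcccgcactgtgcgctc
The Kit window was rich in G and C (69.0%) with 23 CpG dinucleotides, the Egfr window had 64.3% and 15, and the Pdgfra window 48.0% and 5. The medians over all 33469 promoter windows were 51.7% and 7. Kit and Egfr each held 1 GC box, found in 33.1% of all windows, and Pdgfra held 1 CCAAT box, found in 37.5%. TATAAA occurred in 14.2% of all windows. Such matches describe the letters only, and the windows of Kit and Egfr, alike in these measures, belonged to genes that moved in opposite directions.

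Egfr, the receptor of EGF, TGF-alpha and amphiregulin, was lower in the UB than in either duct tissue. Its strongest probe set had signals of 255, 207 and 245 in the UB, 1208, 1057 and 1996 in WD+IM and 751, 1076 and 738 in the WD. The UB arrays lay wholly below all others, and the ranges of WD+IM and WD overlapped. The mean was 236 ± 25.2 in the UB, 1420 ± 505 in WD+IM and 855 ± 192 in the WD (SD, n = 3 each). Egfr differed by -1.66 ± 0.31 between UB and WD (limma adjusted p = 0.00204) and by -2.33 ± 0.31 between UB and WD+IM (limma adjusted p = 1.14e-04). Between WD+IM and WD the difference of 0.67 ± 0.31 was not called (limma adjusted p = 0.177). The UB against WD difference was -1.02 ± 0.33 with quantile normalization and -2.46 ± 0.49 with the spike term, both called. Over the 9 arrays, its log2 signals were most like those of Wif1, St6galnac4 and Sec24d (Pearson's r = 0.991, 0.989 and 0.989). Mesenchymal markers, summed above, were lowest and highest in the same tissues as Egfr.

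The other probe sets of Egfr were weak. The probe set 1370830_at had 81.3, 114 and 123 in the UB, 752, 501 and 319 in WD+IM and 233, 40.1 and 316 in the WD. It also had its highest signals in WD+IM. When all probe sets were tested without the filter, its difference between UB and WD+IM was -1.84 ± 0.56 (limma adjusted p = 0.0402), and between UB and WD it was not called. The probe set 1385413_at stayed below the 40th percentile on all 9 arrays, at 19.3 to 126, and was not called in any comparison without the filter.

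**Figure D2:**
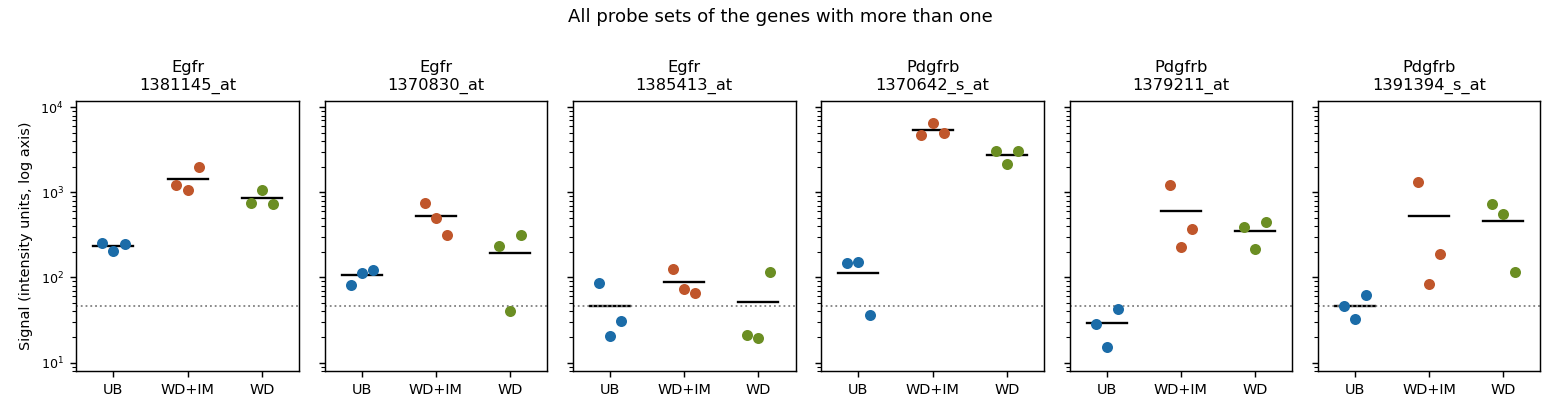
Signals of all 3 probe sets of Egfr and all 3 of Pdgfrb on each array, in intensity units on a log axis, with means as bars and the pseudocount of 46 dotted. The UB arrays lie below all duct arrays for the strongest probe set of each gene. The weaker probe sets lie at or below 123 on every UB array and scatter widely in WD+IM and WD.

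Erbb2, the partner receptor of the family, was the steadiest member. Its signals were 5121, 4942 and 5076 in the UB, 4614, 5311 and 4975 in WD+IM and 5594, 5432 and 6178 in the WD. All UB and all WD+IM arrays lay below the lowest WD array, by a small margin. The differences were -0.18 ± 0.13 for UB against WD (95% interval -0.47 to 0.10, limma adjusted p = 0.311) and -0.21 ± 0.13 for WD+IM against WD (-0.49 to 0.08, limma adjusted p = 0.332). Between UB and WD+IM the difference was 0.02 ± 0.13, with an interval of -0.26 to 0.31. For UB against WD the sign turned with median centring, at 0.28 ± 0.21, still without a call. Summed epithelial markers were at most 82807 in WD+IM and at least 195609 in the WD, so Erbb2 did not move with them.

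Erbb3, which relies on its partners for kinase activity, scattered within each tissue. Its signals were 458, 500 and 867 in the UB, 511, 726 and 132 in WD+IM and 387, 400 and 1249 in the WD. A single array stood far from the rest in WD+IM (replicate 3, low) and in the WD (replicate 3, high), and all groups overlapped. The interval of the UB against WD difference ran from -1.24 to 1.24, so even a 2-fold change could not be told from none. The other 2 comparisons gave -0.57 ± 0.57 for WD+IM against WD and 0.57 ± 0.57 for UB against WD+IM, neither called. The genes most like Erbb3 were Map6, Klc2 and Elac2 (r = 0.966, 0.909 and 0.908), and those most like Erbb2 were Iba57, Gjb1 and Sdc4 (0.957, 0.956 and 0.946).

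Areg, amphiregulin, a ligand of EGFR, was at the bottom of the scale. Its signals were 4.1, 4.4 and 18.9 in the UB, 77.0, 22.9 and 7.9 in WD+IM and 167, 16.0 and 201 in the WD. No array exceeded its 40th percentile, 6 of the 9 values were at or below the pseudocount of 46, and the groups overlapped. Without the filter the UB against WD difference was -1.44 ± 0.54 and not called (limma adjusted p = 0.0798). Detection calls were not used, so such a signal cannot be told from background.

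Among the other EGF family genes, the ligand Tgfa was the clear one. Of 11 listed genes (10 ligands and Erbb4), 9 were on the array with a single symbol and 3 passed the filter. Tgfa, which encodes TGF-alpha, had signals of 2519, 2303 and 2759 in the UB, 606, 1036 and 996 in WD+IM and 2578, 3289 and 2873 in the WD. All UB and all WD arrays exceeded all WD+IM arrays. It was lower in WD+IM than in WD (-1.71 ± 0.22, limma adjusted p = 3.77e-04) and higher in UB than in WD+IM (1.51 ± 0.22, limma adjusted p = 2.61e-04), while UB and WD differed by -0.20 ± 0.22 without a call. The epithelial markers had a median of -1.67 for WD+IM against WD, against -0.01 over all genes tested. Their part in the Tgfa difference was not tested. Egf and Hbegf were tested and not called in any comparison. Erbb4, Btc, Ereg, Nrg1, Nrg2 and Nrg4 did not pass the filter.

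Of 8 genes for shedding of EGF family ligands and restraint of their receptors, 1 was higher and 1 lower in the UB than the WD, against 13.3% and 19.6% of all genes. Lrig1, a membrane protein that promotes breakdown of ERBB receptors, had a mean of 2456 ± 146 in the UB, against 870 ± 153 in the WD (SD, n = 3 each), a difference of 1.46 ± 0.21 (limma adjusted p = 3.65e-04). Its relative Lrig3 went the other way, at -0.78 ± 0.20 (limma adjusted p = 0.013). Against WD+IM the same 2 genes were called, Lrig1 at 1.03 ± 0.21 and Lrig3 at -1.08 ± 0.20. For WD+IM against WD the only call was Adam17, the protease that frees TGF-alpha and amphiregulin from the membrane, at -0.45 ± 0.13. The list's median was -0.18 for UB against WD and -0.04 for WD+IM against WD, near the medians of all genes tested (-0.08 and -0.01).

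Met, the receptor of HGF, was highest in the UB. Its signals were 825, 886 and 1671 in the UB, 284, 410 and 50.0 in WD+IM and 179, 320 and 469 in the WD. All 3 UB arrays lay above all duct arrays, and the ranges of the duct tissues overlapped. The difference was 1.68 ± 0.57 for UB against WD (limma adjusted p = 0.0425) and 2.20 ± 0.57 for UB against WD+IM (limma adjusted p = 0.0129), and WD+IM against WD gave -0.52 ± 0.57 without a call. The UB against WD call was marginal and was lost in 10 of 22 alternatives. Leaving out UB replicate 1, 2 or 3 or WD replicate 1 or 2 gave limma adjusted p-values of 0.072 to 0.16, and a smaller pseudocount, no filter, no variance trend or the replicate block gave 0.0555 to 0.0673. With beta-actin as a covariate the difference was 0.68 ± 0.67 (limma adjusted p = 0.508), and with the spike term 3.69 ± 0.77 (limma adjusted p = 0.0242). The UB against WD+IM call was lost only without UB replicate 3, the highest array, at 1.89 ± 0.66 (limma adjusted p = 0.0648). Against WD+IM replicate 3, the 1 array that shares the high spike ratio of the UB, the difference was 3.54, and this comparison has no replicate check.

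**Figure D3:**
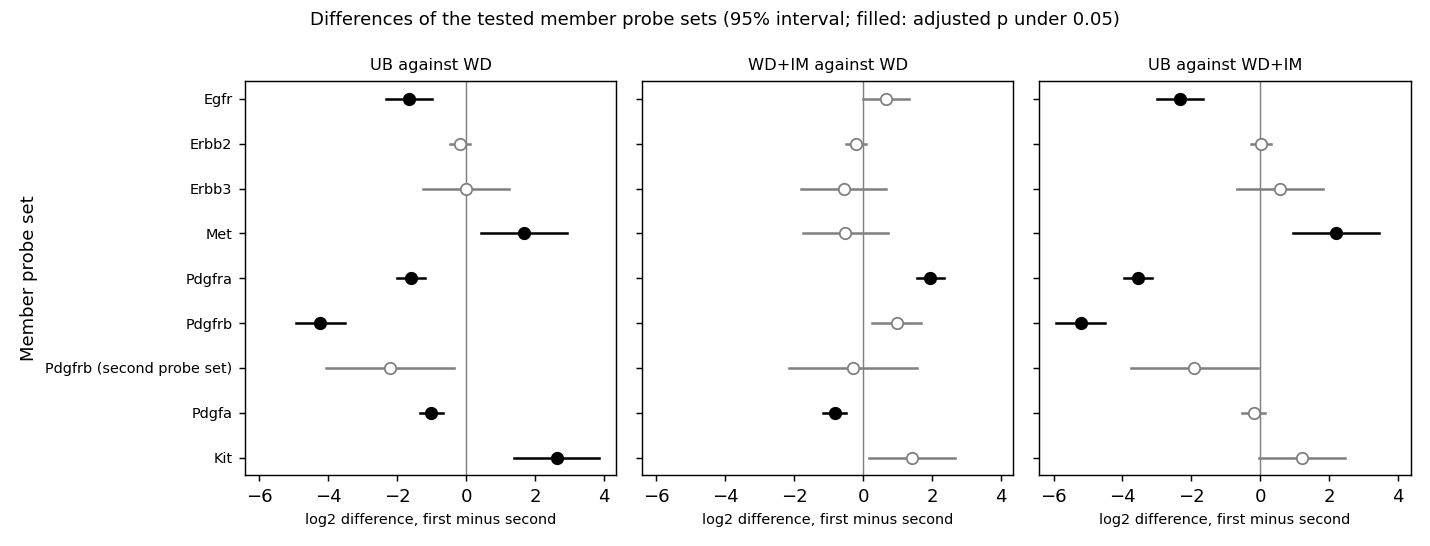
Log2 differences of the 9 tested member probe sets in the 3 comparisons, first-named tissue minus second, with 95% intervals. Filled points were called. The genes called for UB against WD are Kit (2.63) and Met (1.68) on the right and Pdgfrb (-4.24), Egfr (-1.66), Pdgfra (-1.60) and Pdgfa (-1.01) on the left.

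Hgf, the ligand of MET, was weak. Its signals were 165, 15.4 and 17.0 in the UB, 581, 268 and 339 in WD+IM and 440, 101 and 32.4 in the WD. The WD+IM arrays all lay above the UB arrays and overlapped with the WD arrays, whose replicates spanned the widest range. Only 2 arrays, both of WD+IM, exceeded their 40th percentile. Without the filter the difference between UB and WD+IM was -2.18 ± 0.69 (limma adjusted p = 0.0469), and the other comparisons were not called.

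Hgfac, St14, Hpn, Spint1 and Spint2, which act on the cutting of HGF, were each lower in WD+IM than in the WD and higher in the UB than WD+IM. HGF is secreted as an inactive single chain and is cut by serine proteases, among them HGF activator (Hgfac), matriptase (St14) and hepsin (Hpn), which the membrane inhibitors Spint1 and Spint2 hold back. Of 13 listed genes of HGF activation and signalling, 12 were on the array with a single symbol and 8 were tested. For WD+IM against WD, 0 rose and 6 fell, with a median of -1.28, against a median of -0.01 and 8.23% lower over all genes tested. For UB against WD+IM, 5 rose and 2 fell (Gab1 and Plau), with a median of 1.29, against -0.01, 13.6% higher and 16.6% lower over all genes. Plau, which encodes the protease urokinase, was weak, at 24.7, 184 and 80.7 in the UB, 900, 677 and 472 in WD+IM and 145, 203 and 422 in the WD, and ran the other way, at -2.48 ± 0.56 for UB against WD+IM. The inhibitor gene Serpina5 did not pass the filter. Summed epithelial markers were also lower in WD+IM than in the other tissues, and their part in these differences was not tested.

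Hgfac differed between UB and WD as well. Its signals were 16605, 15619 and 14696 in the UB, 1184, 1656 and 1297 in WD+IM and 4251, 4926 and 4485 in the WD, so no 2 tissues overlapped. It was higher in the UB than the WD by 1.77 ± 0.16 (limma adjusted p = 8.41e-06) and lower in WD+IM than in the WD by -1.70 ± 0.16 (limma adjusted p = 6.69e-05). Spint1 had means of 8313 ± 819 in the UB, 2266 ± 612 in WD+IM and 8071 ± 706 in the WD (SD, n = 3 each). It was called in both comparisons with WD+IM, at 1.88 ± 0.18 for the UB and -1.84 ± 0.18 for WD+IM against WD. St14 was higher in the UB than WD+IM by 1.99 ± 0.21, and its 0.56 ± 0.21 over the WD was not called (limma adjusted p = 0.0614). Gab1, the docking protein that carries much of the MET signal, was lower in the UB than the WD by -0.68 ± 0.16 (limma adjusted p = 0.00753). It was the only other gene of this list called between UB and WD.

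Pdgfra, the receptor of PDGF-A, separated all 3 tissues. Its signals were 913, 1295 and 948 in the UB, 13686, 12398 and 11933 in WD+IM and 3789, 3329 and 2690 in the WD. No 2 tissues overlapped, and the mean in WD+IM was 3.88 times that in the WD. Pdgfra was lower in the UB than the WD by -1.60 ± 0.18 (limma adjusted p = 6.65e-05), higher in WD+IM than in the WD by 1.95 ± 0.18 (limma adjusted p = 7.01e-05), and lower in the UB than WD+IM by -3.55 ± 0.18 (limma adjusted p = 4.33e-08). All 3 calls held in every alternative run. Within the 5 arrays of low spike ratio the WD+IM against WD difference was 1.99 ± 0.21, and against the single WD+IM array of high ratio the UB differed by -3.46.

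Pdgfrb, the PDGF receptor of pericytes and mesangial precursors, had the largest differences of the members tested in both comparisons of the UB. Its strongest probe set, 1370642_s_at, had 150, 151 and 36.2 in the UB, 4778, 6571 and 5030 in WD+IM and 3047, 2151 and 3102 in the WD. The UB arrays were all far below the duct arrays, and all WD+IM arrays exceeded all WD arrays. The difference was -4.24 ± 0.33 for UB against WD (limma adjusted p = 2.77e-06) and -5.21 ± 0.33 for UB against WD+IM (limma adjusted p = 2.36e-07), both called in every alternative run. WD+IM against WD gave 0.97 ± 0.33, which missed the threshold (limma adjusted p = 0.0727) but was called with a larger pseudocount, in a fit of those tissues alone, within the arrays of low spike ratio, and without UB replicate 3 (limma adjusted p = 0.0123).

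The other Pdgfrb probe sets were weaker and noisier. The probe set 1391394_s_at had 45.9, 32.9 and 61.8 in the UB, 1313, 84.7 and 187 in WD+IM and 726, 560 and 116 in the WD. The UB arrays again lay below all others, but with replicates of 1 tissue more than 10-fold apart the UB against WD difference of -2.20 ± 0.85 was not called (limma adjusted p = 0.0692). The call was reached at -2.89 ± 0.85 without WD replicate 3 (limma adjusted p = 0.0283), in a fit of UB and WD alone (limma adjusted p = 0.0324) and without WD+IM replicate 1 (limma adjusted p = 0.0329). The probe set 1379211_at had 28.4, 15.2 and 43.0 in the UB, 1220, 229 and 374 in WD+IM and 391, 216 and 451 in the WD, and was called without the filter for the UB against both, at -2.38 ± 0.57 and -2.83 ± 0.57. Averaged over the probe sets that passed, Pdgfrb differed by -3.22 ± 0.41 between UB and WD.

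The levels of both PDGF receptors ran with the mesenchymal markers, and also with mural and endothelial ones. Of the 9 markers, Pdgfra left out, 6 were lower and 1 higher in the UB than the WD, against 19.6% and 13.3% of all genes tested. In WD+IM, 5 were higher and 0 lower than in the WD, against 6.48% and 8.23% of all genes. The other 4 were not called between WD+IM and WD, nor was Pdgfrb. Of 7 tested markers of mural cells (pericytes and smooth muscle), 4 were lower and 0 higher in the UB than the WD. In WD+IM, 3 of these were higher and 0 lower than in the WD. Of 7 endothelial markers, 5 were lower and 0 higher in the UB than the WD, and 6 were higher and 0 lower in WD+IM than in the WD. Over the 9 arrays the log2 signals of Pdgfra were most like those of Lyve1, Kctd12 and Myl9 (Pearson's r = 0.996, 0.993 and 0.992). Those of Pdgfrb were most like Gng8, Gli2 and the collagen chain Col3a1 (0.996, 0.994 and 0.994). The 9 arrays share 3 tissues, so these correlations are given as descriptions. How much of each receptor difference follows from the share of mesenchyme, mural cells or endothelium was not tested.

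Pdgfa, the ligand, was highest in the bare duct. Its signals were 1853, 1941 and 1917 in the UB, 2383, 1939 and 2234 in WD+IM and 3969, 3930 and 3757 in the WD. The WD arrays stood apart from all others, and the replicates were tight, with an SD of 45.7 in the UB, against 113 in the WD. Pdgfa was lower in the UB than the WD by -1.01 ± 0.15 (limma adjusted p = 5.52e-04) and lower in WD+IM than in the WD by -0.82 ± 0.15 (limma adjusted p = 0.00389). UB and WD+IM differed by -0.19 ± 0.15, with an interval of -0.52 to 0.14. The UB against WD call missed the threshold with median centring, at -0.55 ± 0.21 (limma adjusted p = 0.0512), and with the spike term, at -1.07 ± 0.28 (limma adjusted p = 0.0665). The WD+IM against WD call missed it with the beta-actin covariate, at -0.81 ± 0.24 (limma adjusted p = 0.0881). Genes most like Pdgfa over the 9 arrays were Slc14a2, Plce1 and Pamr1 (r = 0.983, 0.981 and 0.974).

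Pdgfa and its receptor thus differed between WD+IM and WD in opposite directions, and between UB and WD in the same direction. Among 12 other listed genes of the PDGF and KIT families and PDGF processing, 7 were tested. Between UB and WD, 1 rose (Kitlg) and 4 fell, with a median of -0.56, against 13.3% higher, 19.6% lower and a median of -0.08 over all genes. Pdgfrl, a PDGF receptor-like protein, had 52.9, 60.6 and 40.9 in the UB, 1216, 837 and 871 in WD+IM and 471, 223 and 227 in the WD, in the same order of tissues as the PDGF receptors. Plat, the protease that activates PDGF-C, had means of 850 ± 172 in the UB, 12050 ± 2236 in WD+IM and 5719 ± 1192 in the WD (SD, n = 3 each). Furin, which cuts the PDGF-A precursor, was lower in the UB than the WD by -0.56 ± 0.16, and Csf1r, the macrophage receptor of the same kinase class, by -1.80 ± 0.34. The summed signal of 6 macrophage markers, Csf1r among them, was 857 to 1394 in the UB, against 3385 to 4721 in the WD.

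Kit was highest in the UB and lowest in the bare duct. Its signals were 975, 1006 and 2149 in the UB, 865, 670 and 246 in WD+IM and 73.8, 441 and 125 in the WD. No WD array exceeded its 40th percentile, and the 10th percentiles of the WD arrays were 55.7 to 76.8, so Kit was weak there. All UB arrays exceeded all duct arrays, while WD+IM and WD overlapped through 1 array of each. Kit was higher in the UB than the WD by 2.63 ± 0.57 (limma adjusted p = 0.00527). Neither the 1.42 ± 0.57 of WD+IM against WD (interval 0.18 to 2.66, limma adjusted p = 0.126) nor the 1.21 ± 0.57 of UB against WD+IM (-0.03 to 2.45, limma adjusted p = 0.149) was called. Neighbours in the order UB, WD+IM and WD could thus not be separated, and the ends could. The UB against WD call was lost with the beta-actin covariate, at 1.80 ± 0.72 (limma adjusted p = 0.105), and the difference was 4.10 ± 0.93 with the spike term. WD+IM against WD was called without WD replicate 2, its highest array, at 2.01 ± 0.54 (limma adjusted p = 0.0448), and UB against WD+IM with median centring, at 1.57 ± 0.50 (limma adjusted p = 0.023).

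Markers of other cells that carry KIT were measured beside it. Of the genes listed for blood and mast cells, Gata2 and Tal1 were lower in the UB than the WD, by -2.08 ± 0.20 and -1.53 ± 0.35. Gata1 was not called. Gata2 had a mean of 7738 in the WD, against 756 for Tal1 and 541 for Gata1. Whether the Gata2 signal came from such cells was not tested. For WD+IM against WD, Gata2 (0.52 ± 0.20) and Tal1 (0.74 ± 0.35) were positive. Gata1 was negative there (-0.33 ± 0.47), and none of these genes was called. The mast cell genes Cpa3, Mcpt1, Tpsab1 and Fcer1a did not pass the filter and so were not tested. They were at 16.6 to 221 on the UB arrays, and the part of such cells in the Kit signal was not tested. Of the pigment cell and neural crest list 3 genes were tested, and none was called between UB and WD: Mitf at 0.01 ± 0.17, Pmel at -0.25 ± 0.29 and Dct at -0.92 ± 0.57 (limma adjusted p = 0.238 to 0.973). Mitf was lower in WD+IM than in the WD, by -0.98 ± 0.17 (limma adjusted p = 0.00228). It was higher in the UB than WD+IM, by 0.99 ± 0.17 (limma adjusted p = 8.2e-04). Pmel and Dct were not called in these comparisons either. Of 5 germ cell markers 1 (Nanos3) was on the array with a single symbol, and it was lower in the UB than the WD, by -1.05 ± 0.35. The genes most like Kit over the 9 arrays were Pacrgl, Nup50 and Psmb2 (r = 0.963, 0.95 and 0.948), and those most like Met were Rimkla, Gnl3 and Nolc1 (0.964, 0.963 and 0.952).

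Kitlg, the ligand of KIT, was also highest in the UB. Its signals were 32377, 32903 and 22981 in the UB, 4886, 6400 and 5680 in WD+IM and 15838, 14361 and 18943 in the WD. No 2 tissues overlapped. It was higher in the UB than the WD by 0.83 ± 0.17 (limma adjusted p = 0.00378), lower in WD+IM than in the WD by -1.53 ± 0.17 (limma adjusted p = 1.77e-04) and higher in the UB than WD+IM by 2.36 ± 0.17 (limma adjusted p = 7.91e-07). Receptor and ligand were thus both called higher in the UB than the WD. With attached mesoderm the ligand was lower than in the bare duct and the receptor was not called. Summed epithelial markers were also lower in WD+IM than in the WD, and their part in the Kitlg difference was not tested.

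Kdr, named here for its place beside Kit and after its values were seen, had 572, 713 and 440 in the UB, 8982, 7968 and 8026 in WD+IM and 1054, 1164 and 536 in the WD. It was higher in WD+IM than in the WD by 3.19 ± 0.28 (limma adjusted p = 5.35e-05) and differed by -0.59 ± 0.28 between UB and WD without a call. Of the 3 neighbouring receptor genes, Kit was thus highest in the UB, and Pdgfra and Kdr in WD+IM. Summed signals of 7 endothelial markers, Kdr among them, were 33594 to 34777 in WD+IM and 4003 to 5012 in the WD.

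**Figure D4:**
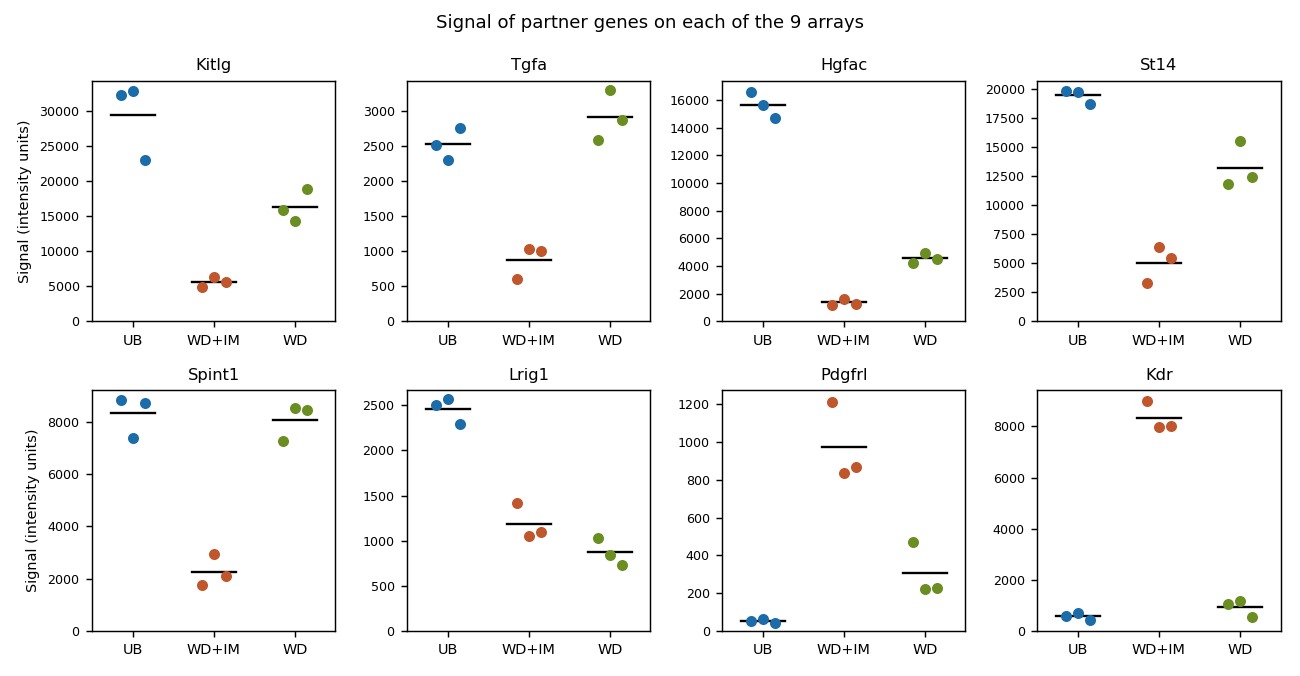
Signals of partner genes on each array, in intensity units on linear axes that start at 0, with means of 3 arrays as bars. Kitlg, Hgfac, St14 and Lrig1 are highest in the UB, Tgfa and Spint1 are low in WD+IM alone, and Pdgfrl and Kdr are highest in WD+IM.

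The cascade shared by these receptors was followed through 32 genes. From GRB2 and SHC to RAS, RAF, MEK, ERK, PI3K and AKT, 23 of them were on the array with a single symbol and 21 were tested. Set against the WD, 0 rose in the UB and 3 fell (Akt1, Pik3r1 and Plcg1), with a median of -0.17 and a range of -0.85 to 0.44, against 13.3% higher, 19.6% lower and a median of -0.08 over all genes. The kinase gene Akt1 fell by 0.64 on the log2 scale (limma adjusted p = 0.00517). Between WD+IM and WD, 1 rose (Shc1, an adaptor, 0.85 ± 0.18) and 1 fell (Src, -0.94 ± 0.19), against 6.48% higher and 8.23% lower over all genes. For UB against WD+IM, 1 rose (Src, 0.78 ± 0.19) and 3 fell (Plcg1 at -0.94 ± 0.20, Frs2 and Shc1), with a median of -0.09, against 13.6% higher, 16.6% lower and a median of -0.01 over all genes.

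Of 16 tested feedback inhibitors and targets of the MAPK cascade, 10 rose and 0 fell for UB against WD, with a median of 1.17, against 13.3% higher, 19.6% lower and a median of -0.08 over all genes. The other 6 were not called: Dusp1 (1.08), Fos (0.64), Jun (-0.04), Myc (-0.12), Dusp2 (-0.74) and Egr3 (-0.76). Set against WD+IM, 11 rose in the UB and 1 fell (Dusp2), with a median of 1.23, against 13.6% higher and 16.6% lower over all genes. The smallest adjusted p-values of UB against WD belonged to the ETS factors Etv5 (4.01 ± 0.27) and Etv4 (3.81 ± 0.27), the receptor pathway inhibitor Spry1 (2.44 ± 0.18) and the ERK phosphatase Dusp6 (2.03 ± 0.25). These genes also respond to RET and FGF receptors. Ret itself was higher in the UB than the WD by 2.62 ± 0.20, so the list does not single out the receptors described here. Dusp5, a nuclear ERK phosphatase, had means of 5666 ± 1492 in the UB, 1082 ± 139 in WD+IM and 2148 ± 543 in the WD (SD, n = 3 each). It was called in all 3 comparisons, at 1.38 ± 0.23 for UB against WD and -0.94 ± 0.23 for WD+IM against WD. With attached mesoderm, 1 gene of the list rose (Etv5) and 3 fell (Egr1, Dusp5 and Myc), with a median of 0.16. Over all genes tested, 6.48% were higher and 8.23% lower in this comparison, with a median of -0.01. Egr1 was higher in the UB than the WD by 0.46 ± 0.15, and it is also a gene that tissue digestion induces. Of the list's other immediate early genes, Fos, Jun, Egr3 and Dusp1 were not called in this comparison, and Ier3 was, at 1.04 ± 0.19. The part of digestion was not tested.

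**Figure D5:**
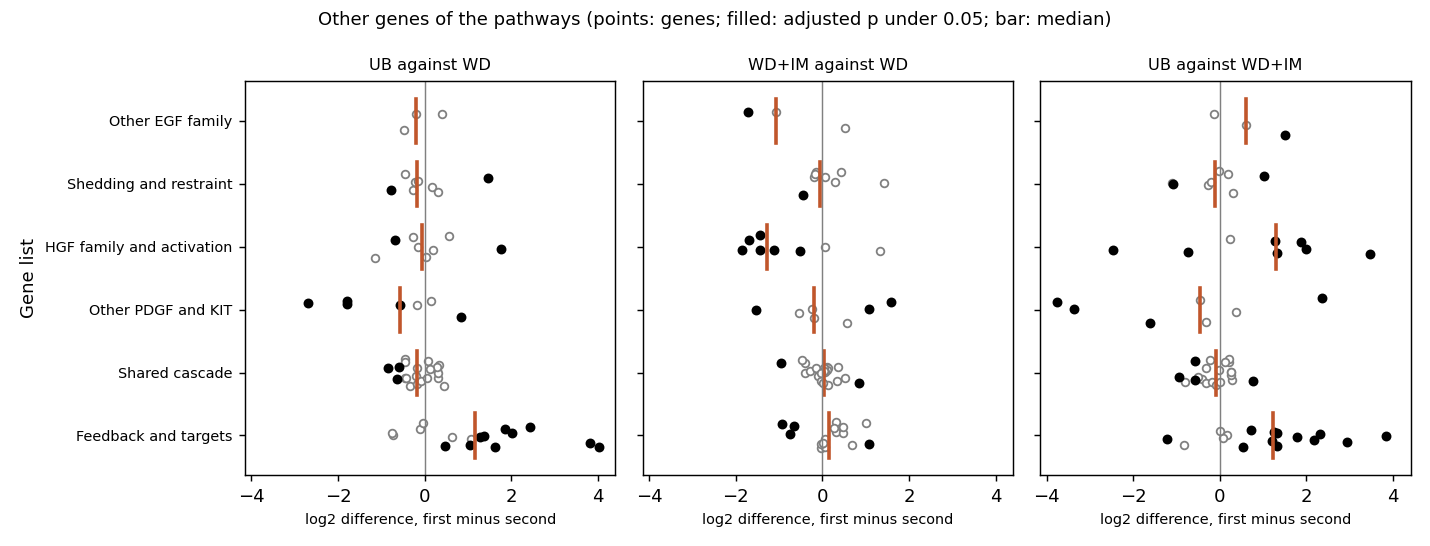
Log2 differences of the tested genes of 6 pathway lists in the 3 comparisons. Each point is a gene, filled when called, and the bar is the list's median. Most feedback and target genes lie to the right of 0 in both comparisons of the UB (medians 1.17 and 1.23), the HGF list lies to the left for WD+IM against WD (median -1.28), and the shared cascade stays between -0.94 and 0.85.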

How the data were processed

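RNA was measured on 9 single-colour Affymetrix arrays, 3 each of UB, WD+IM and WD. The deposited table gives a linear intensity per probe set and array, made with GCOS per the submitters' processing notes; version and settings: not given in the sources used here. All 9 arrays share a mean of 2501 after trimming 2% from both tails, so every difference is relative to the other genes of an array. The number of arrays limits the precision.

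Gene names came from the platform annotation, updated by Entrez ID with the GRCr8 gene table: 20826 had 1 symbol (20758 matched), 436 several and 9780 none, and 57 controls were left out. R 4.3.3 and limma 3.58.1 fitted log2(intensity + 46), where 46 is the rounded 10th percentile over the whole table, with tissue as the only term over all 9 arrays and a mean-variance trend (6 residual and 6.09 prior degrees of freedom). The fit was tested on simulated data with independent noise per probe set, which cannot show the effect of shifts shared by all genes of an array. Per the labels, replicates are biological, and how pools were kept separate is not stated, so p-values measure the spread between these pools. The comparisons share arrays. The labels do not say whether same-numbered pools belong together, and the main fit does not pair them. Same-numbered deviations correlated at -0.348 to 0.277, which cannot settle it.

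All members were named; from each pathway list, up to 4 genes with the smallest p in a comparison, or all called where 5 or fewer were; and the 3 genes of highest Pearson's r with each member. Members, lists and alternatives were chosen with earlier results of these data known.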

Additional observations from a re-analysis of the deposited data

How the results depend on the processing

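The 9 tested member probe sets were refitted with other scalings, pseudocounts, filters and variance models, a fit of the 2 tissues alone, a 2-fold minimum, the replicate block, the spike term, within spike sets, the beta-actin covariate, gene means and without each array. No called difference changed sign. For UB against WD, 6 member probe sets were called, 3 with a filter at the 60th percentile, where 4 were tested, 4 with the beta-actin covariate, where both Kit and Met lost their call and 0 were higher, and 5 to 7 without single arrays. For WD+IM against WD, 2 were called, 1 with the 2-fold minimum, 1 with the beta-actin covariate, and 2 to 3 without single arrays. For UB against WD+IM, 4 were called, 7 without the filter, 2 with the stricter one, and 3 to 4 without single arrays. The replicate block left 5, 2 and 4 calls and ended only that of Met for UB against WD (limma adjusted p = 0.0673). Gene means gave 6, 2 and 4 called genes, as did single probe sets. Over all probe sets, calls for UB against WD went from 6073 to 3004 with the 2-fold minimum, 798 with the spike term, 3276 with the beta-actin covariate and 3742 without UB replicate 1. For WD+IM against WD they went from 2577 to 1464 with the 2-fold minimum, 826 with the covariate and 1444 within the low spike set. For UB against WD+IM they went from 5177 to 2981 and, with the spike term, 2414. The causes were not tested. Weak signals (Areg, Hgf, Erbb3) limit what could be seen.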
